A study of Mus musculus with 17 samples.

Results

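Perineuronal nets are a lattice of extracellular matrix around the cell body and proximal dendrites of certain neurons, in the cortex chiefly the parvalbumin (Pv) interneurons. Their backbone is hyaluronan, made at the cell surface by enzymes such as Has3, to which chondroitin sulfate proteoglycans of the lectican family bind through link proteins (Hapln1, Hapln4), while the glycoprotein tenascin-R (Tnr) cross-links the far ends of the lecticans. The nets are known for closing periods of plasticity and for steadying fast-firing interneurons. The genes described here are the 4 lecticans (Acan, aggrecan; Bcan, brevican; Ncan, neurocan; Vcan, versican), the link proteins Hapln1 and Hapln4, Tnr and Has3. They were chosen by name, with earlier results of these data known. All 8 were found, as 8 of 36293 genes in the bulk files and 8 of 37608 genes in the single-nucleus tables.

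The series measured RNA of male C57BL/6 mice (of the C57BL/6J substrain by the methods) that were either only handled (control) or given chronic unpredictable stress (CUS), which was 12 days of 3 varied stressors a day. Bulk nuclear RNA of the medial prefrontal cortex (mPFC) came from 4 control and 5 CUS mice at postnatal day 90, after behavioural tests. Single-nucleus RNA of the neocortex (sNucDrop-seq, which counts unique molecular identifiers, UMIs, per nucleus) came from 4 control and 4 CUS other mice at postnatal day 80, after the last stressor and without those tests. Region, age, handling and method therefore change together between both data sets and cannot be told apart. All mice were wild type, and control and CUS mice shared strain and sex.

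Bulk libraries held 26188825 to 30525015 reads on genes. After filtering, 26730 nuclei remained, with 4680945 to 12477099 UMIs per mouse. Their barcode headers fell into 2 sets, each with 2 control and 2 CUS mice, and a library had 8 to 20 of its 5000 barcodes in common with the others. Clustered without the 8 genes, the nuclei gave 14 classes of over 200 nuclei that carried the markers of their name, among them oligodendrocyte precursor (OPC-like, 438 nuclei), astrocyte (Astro-like, 1178), Pv interneuron (Inh_Pv-like, 1147) and Ndnf interneuron (Inh_Ndnf-like, 393) classes. The name-giving markers Pdgfra, Pvalb and Ndnf led their classes. A striatal class of 1799 nuclei was present beside the cortical ones.

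The genes lie in pairs that join a lectican to a link protein. In mm10 coordinates, Ncan (chr8:70093085-70120873, minus strand) and Hapln4 (chr8:70083457-70090862, plus strand) face each other with their 3′ ends across 2222 bases. Vcan (chr13:89655312-89742509, minus strand) and Hapln1 (chr13:89539796-89611652, plus strand) do the same across 43659 bases. Acan (chr7:79053483-79115099, plus strand) ends 2 bases from Hapln3, and Bcan (chr3:87987531-88000230, minus strand) lies 21519 bases from Hapln2 on the same strand. Tnr is the long gene of the group, with 407961 bases (chr1:159523769-159931729, plus strand), and Has3 spans chr8:106870242-106884566 on the plus strand. Tnr overlaps 2 predicted genes, of which 1 is on its own strand, Ncan overlaps Mir7066 on its own strand, and Has3 overlaps Chtf8 and Vcan overlaps Gm4117, both on the opposite strand. In the nuclei only reads on the strand of the gene were counted, so there the same-strand overlaps remain. The bulk kit keeps the strand, but whether the bulk counting used it is not given in the sources used here, so bulk reads shared with any of these genes cannot be set apart.

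Promoter sequences (250 bases before and 50 after the start, RefSeq, GRCm38.p6) were found for 6 of the 8 genes, all but Hapln4 and Has3. Those of Tnr (chr1:159523519-159523818, plus strand), Vcan (chr13:89742463-89742762, minus strand), Bcan (chr3:88000307-88000606, minus strand) and Acan (chr7:79052976-79053275, plus strand) are shown because Tnr was the gene called in bulk, Vcan and Bcan shared OPC-like nuclei with it, and Acan is a main lectican of the nets around Pv cells. Capitals mark every match, on either strand, of the E-box (CANNTG), the GC box (GGGCGG), the TATA box (TATAAA), a SOX motif (ACAAAG), the YY1 core (GCCATNTT) and the AP-1 motif (TGANTCA).
Tnr: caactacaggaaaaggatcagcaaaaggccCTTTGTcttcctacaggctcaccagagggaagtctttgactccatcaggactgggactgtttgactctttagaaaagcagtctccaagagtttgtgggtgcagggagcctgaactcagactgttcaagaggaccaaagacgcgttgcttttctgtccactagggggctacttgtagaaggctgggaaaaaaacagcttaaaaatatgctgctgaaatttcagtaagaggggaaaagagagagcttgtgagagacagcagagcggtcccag
Vcan: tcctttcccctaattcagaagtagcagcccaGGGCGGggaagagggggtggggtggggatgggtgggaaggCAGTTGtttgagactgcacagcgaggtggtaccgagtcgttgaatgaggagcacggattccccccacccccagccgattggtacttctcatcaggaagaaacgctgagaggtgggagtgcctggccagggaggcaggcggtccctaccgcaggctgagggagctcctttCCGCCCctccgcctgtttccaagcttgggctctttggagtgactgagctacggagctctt
Bcan: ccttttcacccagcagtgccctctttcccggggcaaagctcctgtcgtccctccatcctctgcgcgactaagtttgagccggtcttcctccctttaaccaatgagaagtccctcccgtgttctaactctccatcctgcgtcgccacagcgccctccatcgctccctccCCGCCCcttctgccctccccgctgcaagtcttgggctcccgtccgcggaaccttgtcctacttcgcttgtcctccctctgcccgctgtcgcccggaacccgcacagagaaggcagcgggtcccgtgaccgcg
Acan: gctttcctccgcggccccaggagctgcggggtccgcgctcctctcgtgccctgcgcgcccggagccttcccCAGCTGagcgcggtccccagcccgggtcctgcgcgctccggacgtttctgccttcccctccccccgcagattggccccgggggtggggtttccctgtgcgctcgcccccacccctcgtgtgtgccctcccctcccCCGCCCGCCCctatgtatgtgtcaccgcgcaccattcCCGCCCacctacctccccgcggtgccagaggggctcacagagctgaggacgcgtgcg
The Tnr window was 48.0% G or C, below the median of 52.7% over the 32851 promoters of the table, and held 1 of these motifs, the SOX letters, which 18.7% of all promoters hold. The Acan window was 74.0% G or C and held 3 GC boxes, 2 of which overlap, and 1 E-box. Vcan had 2 GC boxes and 1 E-box, and Bcan 1 GC box, letters found in 35.7% (GC box) and 72.3% (E-box) of all promoters. None of the 6 windows held the YY1 or AP-1 letters, which occur in 6.05% and 7.81% of promoters.

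Tnr rose in the bulk mPFC of CUS mice and was the only gene of the 8 to pass the test there. The control mice had 797, 802, 990 and 793 CPM (counts scaled to the library total with TMM factors) and the CUS mice 1320, 1244, 1217, 1202 and 1168. Every CUS mouse lay above every control mouse. The means were 845 ± 96.4 (SD, n = 4) and 1230 ± 57.4 (SD, n = 5), a log2 fold change of 0.54 (SE 0.07, 95% interval 0.38 to 0.70), with an FDR of 0.00567 by the quasi-likelihood test of edgeR (Benjamini-Hochberg adjustment over 18394 genes). Of all genes tested 3.29% were called (606 genes, 1.16% higher and 2.13% lower in CUS, with 392 of 606 lower or, without TMM factors, 619 of 822) and 8.76% had groups that did not overlap, beside 1 of 8 here by both measures. Among 366 genes at least as long as Tnr, 26 were called higher (7.10%) and 26 lower, with a median log2 fold change of -0.02, beside 0.01 over all genes. This length split was chosen after the values were seen, and the part of length in the Tnr result was not tested.

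**Figure D1:**
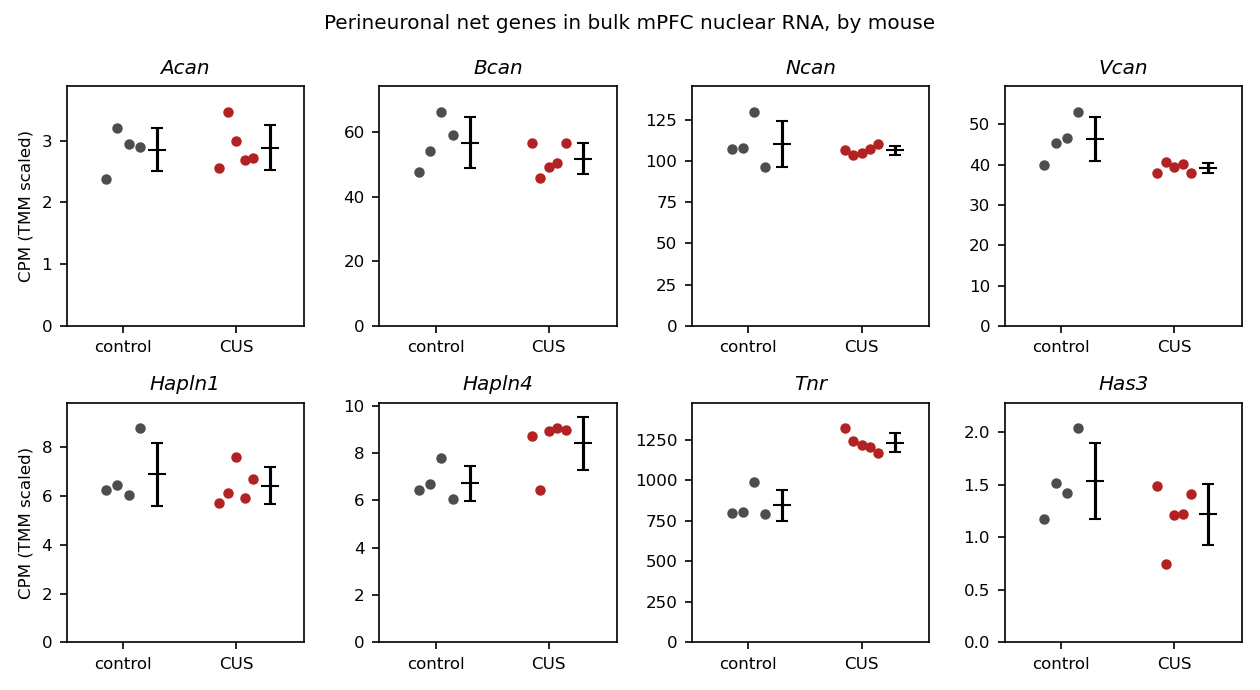
Level of the 8 genes in bulk mPFC nuclear RNA, in CPM scaled by TMM, with 1 point per mouse (4 control, 5 CUS) and the mean with SD beside each group. The 5 CUS mice sit between 1168 and 1320 for Tnr, above all 4 control mice, and the groups overlap for the other 7 genes.

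Among the lecticans, Vcan had the largest difference in bulk but did not pass the test. Its values were 39.9, 45.5, 46.6 and 53.1 CPM in control mice and 37.9, 40.6, 39.3, 40.1 and 37.8 in CUS mice. Each of the 5 CUS mice lay under the mean of the controls, though the groups overlapped through control mouse 1. The log2 fold change was -0.24 (SE 0.07), with an FDR of 0.0824 in edgeR's quasi-likelihood test. Without control mouse 1 it was -0.31 with an FDR of 0.0259, and DESeq2 gave an FDR of 0.0388. Vcan was not called when any other mouse was left out.

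Bcan, a lectican cut by matrix proteases of the Adamts family, had 47.6, 54.0, 66.3 and 58.9 CPM in control mice and 56.7, 45.8, 49.2, 50.5 and 56.6 in CUS mice. The log2 fold change was -0.13 with a 95% interval of -0.33 to 0.07. Ncan, more abundant in developing brain, had 107, 108, 130 and 96.1 CPM in control mice and 106, 103, 105, 107 and 110 in CUS mice, and its interval was -0.21 to 0.11. Acan had 2.38, 3.20, 2.95 and 2.89 CPM in control mice and 2.56, 3.47, 3.00, 2.68 and 2.72 in CUS mice, with an interval of -0.28 to 0.30. For these 3 lecticans the groups overlapped, and changes of the size seen for Tnr lay outside the intervals.

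Of the link proteins, which fix lecticans to hyaluronan, Hapln4 had 6.42, 6.68, 7.77 and 6.05 CPM in control mice and 8.71, 6.43, 8.92, 9.05 and 8.95 in CUS mice. In 4 of 5 CUS mice it was above every control mouse, and CUS mouse 2 was within the control range. The log2 fold change was 0.33 (SE 0.12), with an FDR of 0.129 (edgeR), and without CUS mouse 2 it was 0.41 with an FDR of 0.044. Hapln4 was not called when any other mouse was left out. Hapln1 had 6.27, 6.44, 6.05 and 8.78 CPM in control mice and 5.72, 6.11, 7.61, 5.93 and 6.72 in CUS mice, so that only control mouse 4 stood out. Has3, the hyaluronan synthase, was near the lower end of what the libraries could count, with 31 to 62 reads per control mouse and 19 to 42 per CUS mouse, and a log2 fold change of -0.33 with an interval of -0.81 to 0.14.

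Other genes of the pathway moved in bulk as follows, counted in lists beside the medians and shares of all genes above. Of 17 proteases and inhibitors tested of 18 listed, 4 fell and none rose, with a median of -0.19. These were Adamts9 (log2 fold change -0.68, FDR 0.0213), Mmp14 (-0.59, FDR 0.0372), Adamts4 (-0.66, FDR 0.0453) and, named after its values were seen, Timp2 (-0.25, FDR 0.0467), all from edgeR's quasi-likelihood test. Over 14 alternatives, each with the same sign, Adamts9 stayed called in 9, Mmp14 in 7, Adamts4 in 5 and Timp2 in 5, and leaving out control mouse 2 or CUS mouse 3, 4 or 5, or a replicate block, ended each of these 4 calls. In the same order, these settings also cut the calls over all genes from 606 to 133, 316, 148, 140 and 233. The Mmp14 call was also lost without control mouse 4 or CUS mouse 2, while Timp2 among the mice left out stayed called only without control mouse 3 and Adamts4 only without control mouse 1. Adamts4 and Adamts9 cleave lecticans, Mmp14 is a membrane-bound metalloproteinase, and Timp2 inhibits metalloproteinases.

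Of 11 other matrix and link proteins, 2 fell. Ptprz1, a receptor phosphatase whose ectodomain is the proteoglycan phosphacan and binds tenascins, went from 179 to 140 CPM (log2 fold change -0.36, FDR 0.012, edgeR). Tnc, the tenascin-C relative of Tnr, went from 11.5 to 7.35 CPM (-0.65, FDR 0.0387), opposite in sign to Tnr. Of 7 genes of hyaluronan synthesis and turnover tested of 8 listed, 1 rose, Cemip, which promotes hyaluronan breakdown, from 90.1 to 133 CPM (0.56, FDR 0.0119). Cemip stayed called in 14 of 14 alternatives and Ptprz1 in 13 (lost under the replicate block, FDR 0.0562 in edgeR), but Tnc in 8, being lost without control mouse 1 or 2 or without CUS mouse 2, 3, 4 or 5. Cemip was among the 10 leading genes of the Inh_Pv-like nuclei.

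By edgeR's quasi-likelihood test no gene was called among 12 genes of chondroitin sulfate chain synthesis (median 0.10), 9 sulfotransferases and epimerases tested of 10 (median -0.06) or 9 receptors (median -0.01). The smallest p belonged to Chpf2 (0.32, FDR 0.074), a chain polymerase, to Dse (-0.28, FDR 0.0841), an epimerase, and to Hmmr (-1.21, FDR 0.0549), a hyaluronan receptor, by edgeR's quasi-likelihood test. Chpf2 and Dse were each called in 3 of 14 alternatives, among them DESeq2 (FDR 0.0276 and 0.0455) and edgeR's likelihood ratio test (0.0297 and 0.0473), and Hmmr in 2, among them the likelihood ratio test (0.0116). Hmmr was at 0.541 CPM in control and 0.229 CPM in CUS mice.

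Markers of the cells that hold these genes also differed between the punches. Summed over 7 OPC markers, the level was 470 to 533 CPM in control and 389 to 451 in CUS mice, with no overlap, but 1 of 7 markers was called (Lhfpl3, from 270 to 183 CPM), which made up most of the difference in the sum. The log2 fold change was negative for 6 of 7 markers (median -0.15). Sox6 was at 175 CPM in control and 156 in CUS mice with no overlap (-0.16, FDR 0.0708, edgeR). Sox6 was also among the 10 leading genes of the Inh_Sst-like nuclei, so it does not mark precursors alone. Pdgfra had a log2 fold change of -0.15 (FDR 0.329, edgeR), Olig2 was at 2.34 CPM in both groups, and Megf11 went the other way, from 30.3 to 41.8 CPM (0.47, FDR 0.121, edgeR). Of 8 astrocyte markers 4 were called lower, with sums of 1924 to 2269 CPM in control and 1751 to 2054 in CUS mice. Of 8 oligodendrocyte markers 1 was called lower and 8 of 8 had a negative log2 fold change (median -0.51), with sums of 318 to 732 CPM in control and 335 to 425 in CUS mice. The 5 Pv markers, 170 to 222 CPM in control and 194 to 222 in CUS mice, had no call and a positive log2 fold change in 4 of 5 (median 0.10). Of the neuronal lists, 1 of 4 excitatory markers (Neurod6) and 1 of 7 striatal markers (Pde10a) rose. The excitatory sum was 965 to 1256 CPM in control and 1238 to 1312 in CUS mice, with a positive log2 fold change for 4 of 4 markers. The 4 general inhibitory markers had no call and a negative log2 fold change in 4 of 4 (median -0.29), with sums of 123 to 198 CPM in control and 111 to 171 in CUS mice. No marker was at 0. In bulk tissue, fewer cells of a type and less RNA per cell cannot be told apart, and the part of these shifts in the results above was not tested.

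In the nuclei, each gene had its own set of classes. Among classes of over 200 nuclei, Tnr and Vcan were highest in oligodendrocyte precursors, Bcan and Ncan in astrocytes and precursors, and Hapln1 in Ndnf interneurons. Acan was found mainly in Pv interneurons and precursors, and Hapln4 mainly in neurons. Values here are CPM of the UMIs summed per mouse and class, given as mean ± SD over 8 mice, and they can be compared between classes for a gene but not between genes. Microglia-like nuclei (250, median 1626 UMIs), which are not a known source of net components, are given beside the others as a comparison for free RNA. The map of levels by class shows all 14 classes.

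**Figure D2:**
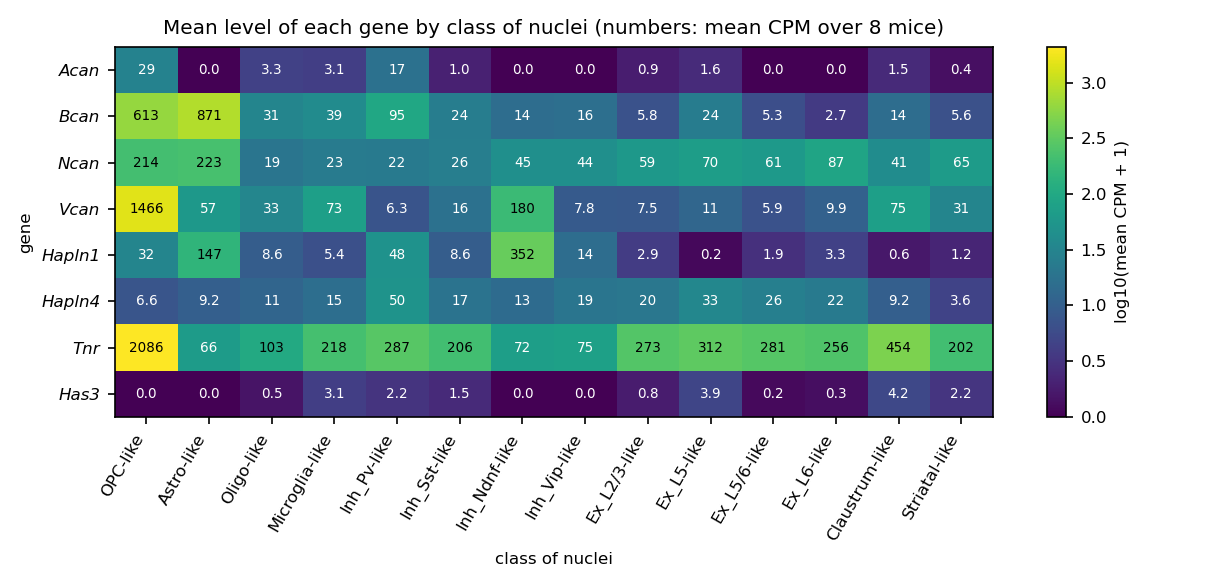
Mean CPM over 8 mice of each gene (rows) in 14 classes of nuclei (columns), on a colour scale of log10(CPM + 1), with the mean CPM printed in each cell. Tnr and Vcan peak in OPC-like nuclei (2086 and 1466), Bcan in Astro-like nuclei (871) and Hapln1 in Inh_Ndnf-like nuclei (352).

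Among classes of over 200 nuclei Tnr was highest in OPC-like nuclei, at 2086 ± 362 CPM (lowest 1504, median 2079, highest 2796). In every mouse this was above the second class, the Claustrum-like nuclei at 454 ± 101 CPM, which did not stand clear of its own neighbour (above it in 5 of 8 mice). The Ex_L2/3-, Ex_L5-, Ex_L5/6- and Ex_L6-like classes and Inh_Pv-like nuclei lay close together, from 256 CPM in Ex_L6-like to 312 in Ex_L5-like, while unnamed clusters of over 200 nuclei reached 397 (led by Galnt14 and Sulf1). Microglia-like nuclei held 218 ± 81.1 CPM and Inh_Sst-like nuclei 206 ± 49.5, while Inh_Vip-like (75.0 ± 28.3), Inh_Ndnf-like (71.9 ± 41.1) and Astro-like nuclei (65.9 ± 38.3) had the lowest levels of the 27 classes and clusters of over 200 nuclei. The Microglia-like level is therefore not a common floor for Tnr, and how much of the lower levels is free RNA was not tested. Thinned to 1000 UMIs, 84.5% of OPC-like nuclei had a Tnr UMI (224 of 265, exact 95% interval 79.6 to 88.7), beside 23.3% of Inh_Pv-like and 16.8% of Microglia-like nuclei (33 of 196). These shares leave out nuclei with under 1000 UMIs, which were 173 of 438 OPC-like, 96 of 1147 Inh_Pv-like and 54 of 250 Microglia-like nuclei. Unthinned, the shares were 85.6%, 42.5% and 24.4%, at median depths of 1086.5, 2045 and 1626 UMIs. Because OPC-like nuclei were 1.64% of all nuclei, they gave 5.85% of all Tnr UMIs, and Ex_L2/3-like nuclei gave 16.0%.

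The oligodendrocyte lineage held 3 stages. Among 77 nuclei of a small class with the markers of newly formed oligodendrocytes (Oligo_Enpp6-like, led by Bmp4, Enpp6 and Gpr17, 4 to 15 nuclei per mouse), Tnr was at 4523 ± 1630 CPM (lowest 2355, median 4625, highest 7435), above the OPC-like level in 7 of 8 mice. In Oligo-like nuclei, the mature stage, it was at 103 ± 41.9 CPM, below OPC-like nuclei in 8 of 8. Bcan and Vcan kept a high level in the middle stage, at 743 ± 368 and 1047 ± 567 CPM, with ranges that overlap those of OPC-like nuclei. Ncan was instead at 1 UMI over the 77 nuclei, or 8.75 CPM with an exact Poisson interval of 0.222 to 48.8 that covers counting error only, below the OPC-like level in 8 of 8 mice. No UMI of Hapln1 was seen there in 114239 UMIs, which allows up to 26.3 CPM (3 counts). An exact Poisson interval of the kind given for Ncan reaches 32.3 CPM for Hapln1.

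Among classes of over 200 nuclei Vcan was highest in OPC-like nuclei, at 1466 ± 166 CPM (lowest 1240, median 1433, highest 1737), above the second class in 8 of 8 mice. That second class was Inh_Ndnf-like, at 180 ± 96.1 CPM (84.3 to 386). Claustrum-like (74.8 ± 59.1), Microglia-like (72.7 ± 51.6) and Astro-like nuclei (57.1 ± 22.0) followed and did not differ beyond their spread. Inh_Pv-like nuclei held 6.32 ± 3.52 CPM. OPC-like nuclei gave 39.8% of all Vcan UMIs.

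Bcan led in Astro-like nuclei at 871 ± 86.1 CPM (lowest 792, median 833, highest 1018), followed by OPC-like nuclei at 613 ± 118 and Inh_Pv-like nuclei at 94.5 ± 27.0, each step with the same sign in 8 of 8 mice. Below these came Microglia-like nuclei at 38.8 ± 14.5 CPM. Astro-like nuclei gave 53.2% of all Bcan UMIs, OPC-like 12.6% and Inh_Pv-like 10.2%. Inh_Ndnf-like nuclei had 14.2 ± 16.3 CPM, so Bcan was not spread over interneurons at large.

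Ncan was shared by Astro-like (223 ± 36.6 CPM) and OPC-like nuclei (214 ± 39.5), which ranked either way in 4 of 8 mice. Excitatory neurons came next, with 86.9 ± 9.93 CPM in Ex_L6-like and 58.7 ± 10.6 in Ex_L2/3-like nuclei. Inh_Pv-like nuclei were near the bottom, at 21.5 ± 11.0 CPM, at the level of Microglia-like nuclei (22.7 ± 19.5).

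Acan was sparse, with 110 UMIs in 99 nuclei. Of these, 49 lay in Inh_Pv-like nuclei (44.5%), which made up 4.29% of nuclei, and 14 in OPC-like nuclei (12.7%). Inh_Pv-like nuclei had 16.5 ± 10.9 CPM with at least 1 UMI in 8 of 8 mice, and OPC-like nuclei had 28.9 ± 22.9 with a UMI in 7 of 8, so the order of these classes is not fixed by the data. No Acan UMI was found in Astro-like, Inh_Vip-like or Inh_Ndnf-like nuclei. Among nuclei with at least 1000 UMIs, thinned to that depth, 1.71% of Inh_Pv-like nuclei had one (18 of 1051, exact interval 1.02 to 2.69), against 0.136% of Inh_Sst-like (1 of 737) and 0 of 196 Microglia-like nuclei. The unthinned shares were 3.84%, 0.253% and 0.4%.

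The link proteins differed in their leading classes. Hapln1 was highest in Inh_Ndnf-like nuclei at 352 ± 96.5 CPM (lowest 232, median 338, highest 520), then in Astro-like nuclei at 147 ± 37.4 and Inh_Pv-like nuclei at 48.2 ± 12.0, while Microglia-like nuclei had 5.41 ± 11.9. The first 2 steps had the same sign in 8 of 8 mice, and Inh_Pv-like nuclei were above OPC-like nuclei (31.6 ± 18.4) in 5 of 8. Hapln4 had its largest mean in a cluster of 222 nuclei led by Nefm and Nefl (119 ± 144 CPM from 23 UMIs, 0 to 450), which rests on few counts. Inh_Pv-like nuclei (49.6 ± 24.0), a cluster led by Tshz2 and Slc17a6 (45.4 ± 13.1) and Ex_L5-like nuclei (33.0 ± 10.8) followed, OPC-like nuclei had 6.58 ± 14.8 from 4 UMIs, Microglia-like nuclei had 14.9 ± 15.3 and Inh_Ndnf-like nuclei 13.5 ± 13.6. Has3 gave 88 UMIs in 84 nuclei over the whole data set and none in Astro-like, OPC-like, Inh_Ndnf-like or Inh_Vip-like nuclei, which is too few to order the classes.

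Genes with the most similar profile over the 14 classes, by Pearson's r of log2(CPM + 10) among 11749 genes, were Gm37731 and Abhd2 for Tnr (0.929 and 0.901), 2610008E11Rik and Gm2a for Vcan (0.908 and 0.901), and Vegfa and Spag9 for Bcan (0.955 and 0.949). For Ncan they were Dag1 and Zc3h12b (0.921 and 0.884), for Hapln1 Phf20 and Arid5a (0.916 and 0.913), for Hapln4 Tmem25 and Stradb (0.893 and 0.886), and for Acan Prmt3 and Gpnmb (0.924 and 0.873). Has3, at most 4.21 CPM in a class, had Gm34907 and Fez2 (0.793 and 0.789). Dag1 encodes dystroglycan, a matrix receptor. Classes share libraries and differ in depth, so these values are a description. The neighbouring genes Ncan and Hapln4 had r = -0.349 over the 14 classes and Vcan and Hapln1 r = 0.421. For Bcan and Hapln2 r was 0.035, and for Acan and Hapln3 it was 0.767 with a Spearman's rho of 0.04, both of these genes having their largest mean in OPC-like nuclei.

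In all, 4 pairs of classes were compared within the same 8 mice with edgeR's quasi-likelihood test (mouse as a block, FDR 0.05), and 11 of 13 tests that the filter on low counts allowed were called. A gene could pass that filter through the class where it is high, so the calls describe the genes tested and not the 8 as a group. OPC-like against Astro-like nuclei separated the glial members. Tnr (log2 fold change 4.95, SE 0.15) and Vcan (4.74, SE 0.15) were higher in OPC-like nuclei, in 8 of 8 mice, and Bcan (-0.53, SE 0.11, FDR 3.51e-05) and Hapln1 (-2.16, SE 0.33, FDR 9.5e-09) were lower, in 8 of 8. Ncan was not called (-0.07, SE 0.18). Of all 2720 genes tested in this pair, 22.3% were called higher in OPC-like and 25.4% in Astro-like nuclei.

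OPC-like against Oligo-like nuclei gave higher Vcan (5.61, SE 0.26), Tnr (4.22, SE 0.20), Bcan (4.16, SE 0.30) and Ncan (3.24, SE 0.34), all called and all in 8 of 8 mice, where 20.3% of genes were higher in OPC-like and 20.1% in Oligo-like nuclei. These 4 genes passed the filter through their UMIs in OPC-like nuclei (112 to 1065, against 19 to 101 in Oligo-like nuclei). Hapln4, which did not pass it, was higher in Oligo-like nuclei in 6 of 8 mice, but on 4 UMIs in OPC-like and 10 in Oligo-like nuclei. Fitted without the filter its log2 fold change was -0.86 (FDR 0.873, edgeR).

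**Figure D3:**
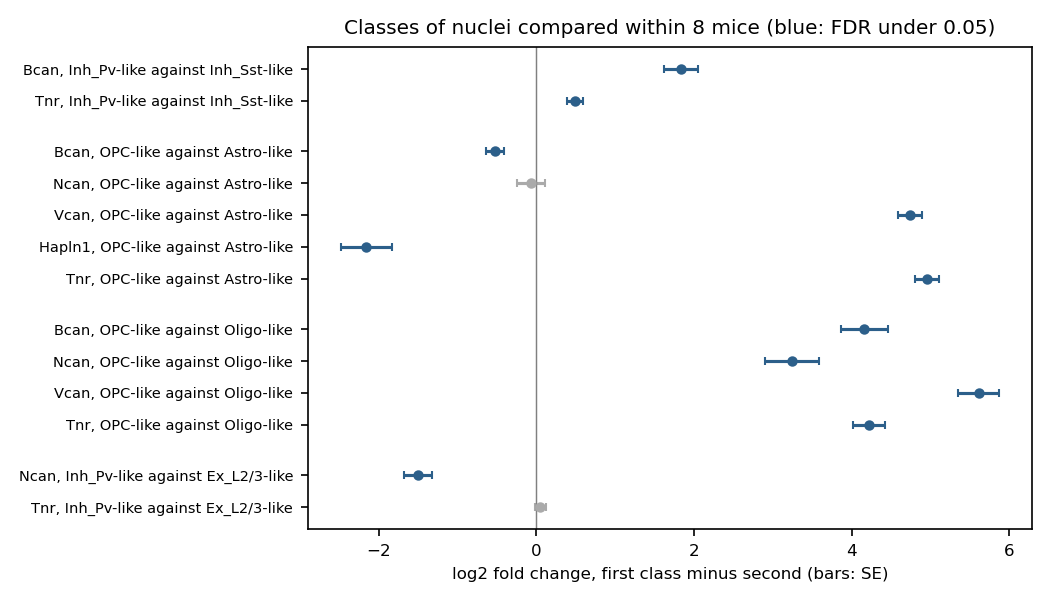
Log2 fold change between classes of nuclei within 8 mice, from edgeR's quasi-likelihood fit, for the 13 tests that passed the filter on low counts, with SE bars and blue for FDR under 0.05. The 2 grey points, Ncan in OPC-like against Astro-like and Tnr in Inh_Pv-like against Ex_L2/3-like nuclei, lie near 0.

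Inh_Pv-like nuclei, the class known for nets, were set against Inh_Sst-like nuclei. Bcan was higher in Inh_Pv-like nuclei (94.5 against 24.2 CPM, log2 fold change 1.84, SE 0.21, FDR 1.78e-11) and so was Tnr (287 against 206 CPM, 0.49, SE 0.10, FDR 6.45e-05), both in 8 of 8 mice and with edgeR, beside 15.9% of genes higher in Inh_Pv-like and 15.4% in Inh_Sst-like nuclei. Bcan passed the filter through its UMIs in Inh_Pv-like nuclei (264, against 46 in Inh_Sst-like nuclei). Acan (49 against 2 UMIs), Hapln1 (135 against 16) and Hapln4 (152 against 31) were below the filter. Fitted without that filter they had log2 fold changes of 3.52 (FDR 1.5e-06), 2.46 (FDR 3.71e-12) and 1.66 (FDR 8.63e-08) by edgeR, with the higher value in Inh_Pv-like nuclei in 8, 8 and 7 of 8 mice. Vcan pointed the other way, with 19 against 26 UMIs and -1.07 (FDR 0.178). The shares of all genes called belong to the fits with the filter, and none is given here for the unfiltered fits.

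Against Ex_L2/3-like nuclei, Inh_Pv-like nuclei had less Ncan (-1.50, SE 0.18, FDR 2.92e-12, in 8 of 8 mice, edgeR) and a Tnr level that was not told apart (0.05, SE 0.07, FDR 0.56), where 32.0% of genes were higher in Inh_Pv-like and 31.9% in Ex_L2/3-like nuclei. Without the filter, Acan (3.74, FDR 9.44e-16), Bcan (3.74, FDR 1.25e-82), Hapln1 (3.80, FDR 7.19e-48) and Hapln4 (1.13, FDR 3.52e-09) were higher in Inh_Pv-like nuclei. The Inh_Pv-like nuclei thus held Acan, Bcan, Hapln1 and Hapln4 above both classes they were set against in these fits, and not Ncan or Vcan. Inh_Ndnf-like nuclei, not part of these fits, had more Hapln1 than Inh_Pv-like nuclei (352 against 48.2 CPM). For the fits without the filter no share over all genes is given here.

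**Figure D4:**
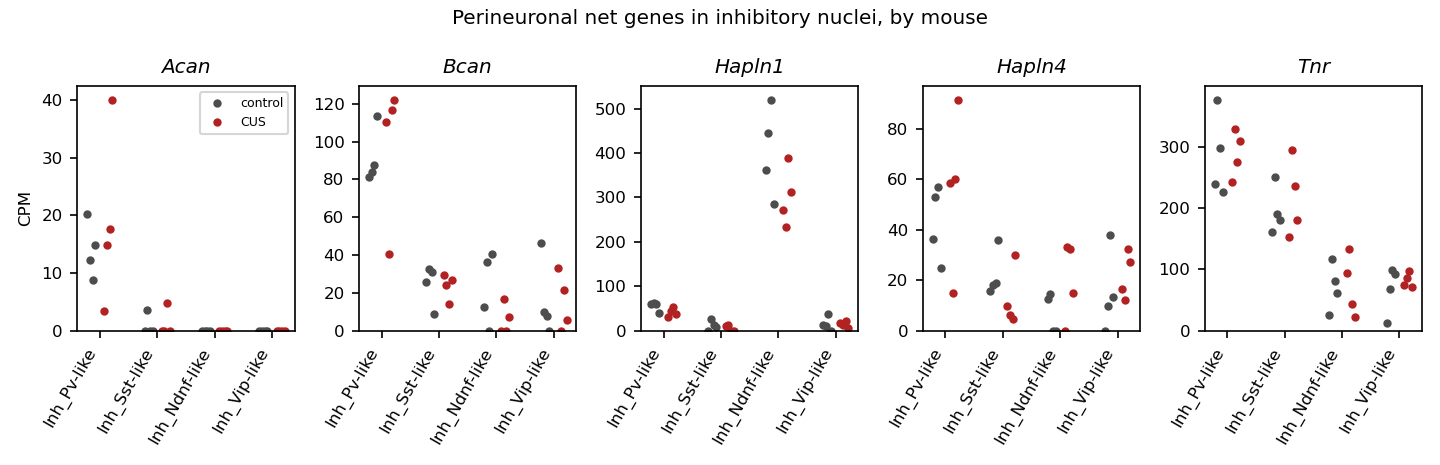
CPM per mouse of 5 genes in 4 classes of inhibitory nuclei, with control mice in grey and CUS mice in red (4 each). Acan, Bcan and Hapln4 are highest in Inh_Pv-like nuclei and Hapln1 in Inh_Ndnf-like nuclei, where it reaches 520 CPM.

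No member was called between CUS and control mice in the nuclei. With all nuclei summed per mouse, only Tnr and Ncan passed the filter of the study's methods, and neither was called by edgeR's quasi-likelihood test or by DESeq2 or had an unadjusted p under 0.05, where 0.0199% of 5022 genes (1 gene) were called. Without CUS mouse 2 as many as 850 of all genes were called, and still no member. Tnr was at 248, 281, 286 and 289 CPM in control mice and 219, 340, 279 and 242 in CUS mice. The CUS mice lay on both sides of the controls. The log2 fold change was -0.02 (SE 0.12), with a 95% interval of -0.29 to 0.24 that does not reach the bulk value of 0.54. Ncan was at 48.2, 60.8, 65.9 and 61.9 CPM in control mice and 60.4, 57.9, 65.9 and 70.2 in CUS mice (0.11, interval -0.13 to 0.36).

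The difference between the bulk and the nuclei effect of CUS on Tnr was 0.60 on the log2 scale. Permuting the labels within each data set (exact permutation test, 8820 arrangements, two-sided) gave p = 0.0135 and, adjusted over the 8 genes, 0.108, which misses the threshold. These arrangements take CUS to have no effect in either data set, so the p does not test whether both effects are equal. For the other 7 genes the difference was between -0.41 (Acan) and 0.08 (Hapln1), with adjusted p of 0.82 each in the exact permutation test. Hapln4 was higher in CUS mice in both data sets without being called in either, at 14.3, 18.7, 17.3 and 14.4 CPM in control nuclei and 19.6, 15.2, 23.2 and 29.2 in CUS nuclei. Its log2 fold change fitted without the filter was 0.42 (FDR 0.366, edgeR).

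Within classes, 33 pairs of a gene and a class could be tested and none was called at an FDR of 0.2, where 0.100% of all 63751 pairs were. An unadjusted p under 0.05 occurred in 1 of the 33 pairs and in 5.92% of all pairs. In OPC-like nuclei Tnr was at 2066 ± 142 CPM in control and 2120 ± 616 in CUS mice (SD, n = 4 each), a log2 fold change of 0.01 with an interval of -0.36 to 0.39. Vcan there was at 1580 ± 150 and 1355 ± 140 CPM (-0.22, interval -0.59 to 0.15), uncalled as in bulk. OPC-like nuclei were 1.18% to 2.38% of nuclei in control and 1.27% to 2.71% in CUS mice.

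Across the 13 classes in which it could be tested, Tnr had log2 fold changes from -0.23 (Inh_Ndnf-like) to 0.23 (Striatal-like). In Ex_L2/3-like nuclei, the largest class, the value was 0.02 with an interval of -0.29 to 0.33, and in Ex_L5-like nuclei 0.01 with an interval of -0.30 to 0.31. The bulk value lay outside these intervals. In Striatal-like nuclei, with 826 Tnr UMIs, the interval was -0.13 to 0.58 and held the bulk value. In the classes with few Tnr UMIs the intervals were wide, such as -1.14 to 0.68 in Inh_Ndnf-like and -0.76 to 0.86 in Oligo-like nuclei, and a rise of the bulk size would not have been detectable there.

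The pair with an unadjusted p under 0.05 was Vcan in Inh_Ndnf-like nuclei, at 225 ± 120 CPM in control and 136 ± 47.9 in CUS mice (-0.68, FDR 0.984, edgeR). Hapln1 in the same nuclei was at 400 ± 95.7 and 302 ± 60.4 CPM (-0.44, interval -0.91 to 0.02), and in Inh_Pv-like nuclei at 55.2 ± 10.1 and 41.3 ± 10.1 (-0.48, interval -1.04 to 0.08). Bcan in Inh_Pv-like nuclei was at 91.7 ± 16.2 and 96.1 ± 35.2 CPM (0.16, interval -0.31 to 0.64), and Hapln4 there at 42.7 ± 14.4 and 55.2 ± 29.8 (0.39, interval -0.24 to 1.01). In Astro-like nuclei Bcan differed by 0.05 (interval -0.28 to 0.38), Ncan by -0.18 (-0.62 to 0.25) and Hapln1 by -0.01 (-0.51 to 0.49). None of these passed the test.

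**Figure D5:**
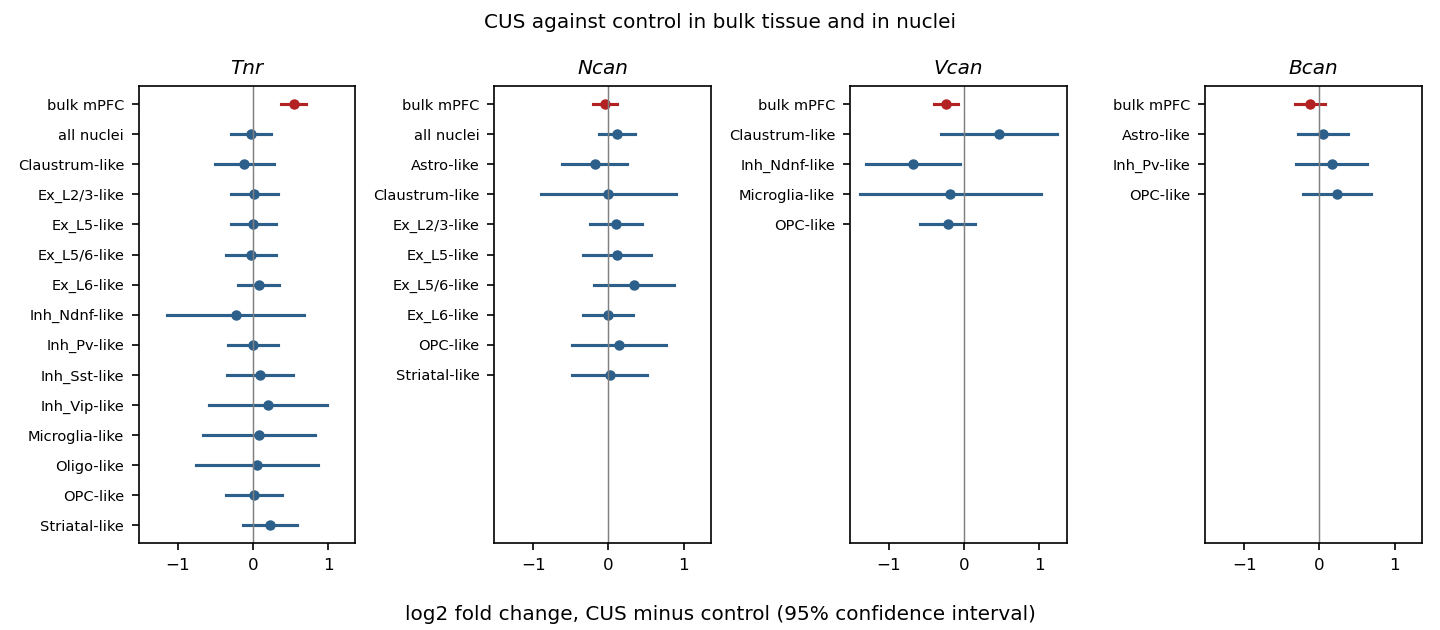
Log2 fold change of CUS minus control with 95% confidence intervals, for 4 genes in bulk mPFC (red) and in nuclei (blue: all nuclei and each class in which the gene passed the filter). Tnr is at 0.54 in bulk and between -0.23 and 0.23 in the 13 classes of nuclei in which it was tested.

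Of the pathway lists, 18 genes passed the filter in the summed nuclei (6 matrix and link proteins, 4 of chain synthesis, 3 proteases and inhibitors, 5 receptors), and none of them was called. Ptprz1 and Timp2 were the bulk-called genes among them, with log2 fold changes of -0.04 (FDR 0.938) and 0.06 (FDR 0.869) in the nuclei by edgeR's quasi-likelihood test.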

How the data were processed

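Bulk nuclear RNA of the mPFC (4 control, 5 CUS mice) and sNucDrop-seq of the neocortex (4 control, 4 CUS mice) were analysed, with each mouse as 1 replicate and groups taken from the labels. The deposited values are whole-number counts that the authors made from reads aligned to mm10, with STAR named in the submitters' processing notes, as uniquely mapped reads per gene in bulk and exonic plus intronic UMIs per gene and barcode in nuclei. Neither was normalized before deposit. Bulk reads kept their PCR copies, and intervals for single shares cover counting error only.

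Bulk counts were tested with edgeR 4.0.16 in R 4.3.3 (filterByExpr, TMM factors, quasi-likelihood test, Benjamini-Hochberg FDR 0.05). Barcodes with 600 to 5000 genes, under 5% mitochondrial UMIs, no single-letter sequence and a Scrublet doublet score (scanpy 1.11.5, expected rate 0.1) of at most 0.2 were kept. Nuclei were clustered with Seurat 5.3.0 (2000 variable genes less 20 matrix genes, 50 components, 20 neighbours, resolution 1). A cluster took a name where at least 3 of its markers were enriched 1.5-fold in 5% of its nuclei and 2 were among its 10 leading genes. UMIs were summed per mouse and class and tested with edgeR on genes whose UMIs exceeded 10% of the nuclei (FDR 0.2, or 0.05 between classes with mouse as a block). The tests were tested on simulated data first.

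The members and gene lists were chosen with earlier results of these data known. Named genes are the 8 members, up to 3 called genes of each list or its gene with the smallest p, the 2 genes most alike to each member, and class markers. Alternatives were the likelihood ratio test, DESeq2 1.42.0, no TMM factors, no filter, a replicate block, each mouse left out, other clustering resolutions and other filters on nuclei. In bulk the replicate block left out CUS mouse 5, whose number no control mouse had. The paper reports a profound batch effect in its single-nucleus data and fitted batch in its tests. The batch of each mouse is not in the labels, so the main fits of CUS against control in the nuclei held no batch term. The barcode-set term was added after the data were seen.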

Additional observations from a re-analysis of the deposited data

Results flagged for a closer look

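Within groups of 4 or 5 mice, 1 mouse stood apart by Dixon's 95% criterion in 12 of 98 groups of values, where chance flags about 1 in 20. In bulk these were control mouse 3 for Tnr (990 CPM, the control nearest to the CUS mice), control mouse 4 for Hapln1 (8.78 CPM) and CUS mouse 2 for Hapln4 (6.43 CPM, within the control range). In all nuclei it was control mouse 4 for Vcan (41.6 CPM). Within classes the mice that stood apart were control mouse 1 for Bcan in Astro-like (998 CPM) and OPC-like nuclei (745 CPM) and for Vcan in Microglia-like nuclei (172 CPM from 12 nuclei), control mouse 2 and CUS mouse 2 for Vcan in Claustrum-like nuclei (103 and 222 CPM), control mouse 4 (116 CPM) and CUS mouse 2 (43.7 CPM) for Bcan in Inh_Pv-like nuclei, and CUS mouse 3 for Ncan in OPC-like nuclei (237 CPM). CUS mouse 2 of the nuclei thus had the lowest Bcan in Inh_Pv-like nuclei and the highest Vcan in Claustrum-like nuclei of the 8 mice.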

How the results depend on the processing

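The Tnr call in bulk held under every alternative, with log2 fold changes of 0.51 to 0.62 and FDRs of 2.38e-09 to 0.0258. The count of members called in bulk, 1 as reported, was 2 with DESeq2 and with the likelihood ratio test, where Vcan joined (FDR 0.0388 and 0.0499), and 1 to 2 with a mouse left out, where Vcan joined without control mouse 1 and Hapln4 without CUS mouse 2. With the replicate number as a block it was 1. No member was called in the nuclei under any alternative, including the barcode-set term and each barcode set alone. Between classes, 11 calls became 19 without the filter, since sparse members entered, and 4 with at least 1000 genes per nucleus, where no OPC-like nucleus of 1 mouse was left and both OPC contrasts could not be fitted. The fits without the filter took in 21076 to 29944 genes, and the share of these that was called is not given here. Without the mouse as a block there were 11.

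Signs turned only for members that were not called. For Tnr over all nuclei the value was 0.0775 in the poly-A and poly-T barcode set, 0.0053 without the doublet filter and -0.147 to 0.0591 with a mouse left out. Bulk Acan was -0.0182 without TMM factors and -0.071 to 0.0709 with a mouse left out, bulk Hapln1 -0.172 to 0.0474 and bulk Ncan -0.102 to 0.0298. Ncan in OPC-like against Astro-like nuclei was 0.0499 without TMM factors and -0.201 to 0.0948 with a mouse left out. Tnr in Inh_Pv-like against Ex_L2/3-like nuclei was -0.131 without the filter and -0.0227 to 0.102 with a mouse left out.

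Replicate numbers did not pair the mice in bulk (correlations of deviations 0.02 to 0.15). In the nuclei the correlation was 0.36 and 0.40 for numbers 1 and 3, whose control and CUS mouse shared a barcode set. It was -0.07 and -0.45 for numbers 2 and 4, whose mice were in different sets. With replicate numbers as a block the genes called in bulk went from 606 to 233 and those over classes from 64 to 206. The bulk count over all genes was 1330 with the likelihood ratio test, 1402 with DESeq2 and 133 (without control mouse 2) to 1508 (without control mouse 3) with a mouse left out. In the nuclei, the classes had 234 calls with the likelihood ratio test, 143 without the filter, 219 with the barcode-set term, 9 and 557 within the barcode sets, and 24 to 875 with a mouse left out, the highest without CUS mouse 2. Depth limits Acan, Has3 and, in most classes, both link proteins.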
